A study of Mus musculus with 94 samples.

Results

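Trem2, Gpnmb, Spp1, Itgax, Mmp12, Atp6v0d2, Cd9, Fabp5 and Lgals3 are markers of lipid-associated macrophages. They were taken as a list of named genes, and their rows were read from the raw count tables of 2 mouse fat depots. The list holds 9 of the 20411 genes that the tables contain. All 9 passed the filter on low counts in both depots.

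Lipid-associated macrophages gather around dying, lipid-laden adipocytes in obese fat, where they take up lipid and break it down in lysosomes. Their programme was described as dependent on the lipid receptor TREM2. The genes fall into 3 groups by role: proteins of the cell surface (Trem2, Gpnmb, Itgax, Cd9), secreted proteins (Spp1, Mmp12, Lgals3), and proteins of the lysosome or of lipid transport (Atp6v0d2, Fabp5).

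The study followed fat tissue through obesity and weight loss in male C57BL/6JBomTac mice, with poly(A) RNA-seq of epididymal (eWAT, visceral) and inguinal (iWAT, subcutaneous) fat from the same 47 mice. The diets began at 10 weeks of age. Obese mice (5 mice) received a high-fat diet (D12492) for 18 weeks and 6 lean mice a low-fat diet (D12450J), so both groups were 28 weeks old at the obesity time. Regression mice received the high-fat diet for 18 weeks and then the low-fat diet for 2, 6 or 12 weeks (6 mice each), at ages of 30, 34 and 40 weeks, and each time had its own 6 lean mice on the low-fat diet throughout. Cage-mates were housed together, and which of them shared an enclosure was not given. Each tissue piece was bulk RNA, so fewer cells of a type and less RNA per cell cannot be told apart in any result here.

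The 94 libraries held 1.32 to 25.9 M counts in eWAT and 6.27 to 34.3 M in iWAT. Adipocyte markers were abundant in both depots, with sums over 6 genes of 13460 to 25922 CPM (counts scaled to the library total) in the lean eWAT libraries and 8958 to 21463 CPM in the lean iWAT libraries. By depth or by signals of epididymal duct, lymphoid, muscle or skin tissue, 5 eWAT and 11 iWAT libraries stood apart. In eWAT these were regression replicate 2 at 2 weeks, with the lowest total, and obese replicate 5 and 1 lean library each at 2, 6 and 12 weeks, with a duct signal. Without them, a setting added after seeing the data, 7, 9, 6 and 7 of the 9 genes were called in eWAT in obesity and at 2, 6 and 12 weeks, against 6, 9, 6 and 7 with them. In iWAT it was 8, 2, 0 and 0 against 8, 3, 0 and 0.

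On mm10, by GENCODE M21, the genes lie at chr17:48346401-48354147 (Trem2), chr6:49036546-49070929 (Gpnmb), chr7:128129547-128150657 (Itgax), chr6:125460266-125494791 (Cd9), chr5:104435118-104441050 (Spp1), chr9:7344381-7369499 (Mmp12), chr14:47367751-47386160 (Lgals3), chr4:19876841-19922605 (Atp6v0d2) and chr3:10012548-10016607 (Fabp5). Cd9 overlaps Gm28809 and Gm26728 and Mmp12 overlaps Mmp1b, all on the opposite strand, and Spp1 overlaps Gm42793 on the same strand. No source used here states the strand setting of the counting, so reads of these neighbours cannot be told apart from those of the 3 genes.

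Promoter windows from RefSeq (build GRCm38.p6, 250 bases before to 50 bases after the annotated start) were on hand for 7 of the 9 genes. The 4 shown here each hold a match to TGANTCA, a loose AP-1 type motif with any base at N, searched on both strands. These windows were chosen because they hold the motif. Lgals3, which moved with these 4 genes in eWAT, has a window without it. The match is in capitals, and all 4 windows lie on the plus strand: Trem2 at chr17:48346151-48346450, Gpnmb at chr6:49036268-49036567, Itgax at chr7:128129300-128129599 and Mmp12 at chr9:7347124-7347423 (the second of its 2 annotated starts).
Trem2: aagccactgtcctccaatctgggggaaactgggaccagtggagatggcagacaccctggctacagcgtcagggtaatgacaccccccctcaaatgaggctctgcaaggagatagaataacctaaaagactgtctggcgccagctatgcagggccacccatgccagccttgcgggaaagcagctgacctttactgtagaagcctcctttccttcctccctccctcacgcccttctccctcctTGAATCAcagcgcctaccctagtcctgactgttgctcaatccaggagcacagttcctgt
Gpnmb: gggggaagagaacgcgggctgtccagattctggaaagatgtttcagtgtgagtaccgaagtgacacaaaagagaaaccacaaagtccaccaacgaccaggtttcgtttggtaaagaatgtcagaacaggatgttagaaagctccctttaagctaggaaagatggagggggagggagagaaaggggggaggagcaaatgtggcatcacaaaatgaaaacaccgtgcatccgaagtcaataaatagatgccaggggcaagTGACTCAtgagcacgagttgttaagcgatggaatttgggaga
Itgax: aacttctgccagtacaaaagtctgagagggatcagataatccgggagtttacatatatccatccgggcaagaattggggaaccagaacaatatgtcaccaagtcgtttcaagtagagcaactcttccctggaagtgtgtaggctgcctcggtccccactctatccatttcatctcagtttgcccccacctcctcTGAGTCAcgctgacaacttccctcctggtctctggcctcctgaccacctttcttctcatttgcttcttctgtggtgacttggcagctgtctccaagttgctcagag
Mmp12: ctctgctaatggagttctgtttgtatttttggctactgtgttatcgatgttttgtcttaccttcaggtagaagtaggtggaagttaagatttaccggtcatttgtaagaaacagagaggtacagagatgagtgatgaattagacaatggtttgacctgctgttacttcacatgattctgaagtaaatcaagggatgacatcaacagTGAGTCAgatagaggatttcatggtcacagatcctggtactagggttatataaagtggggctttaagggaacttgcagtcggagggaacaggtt
The match began 9 bases before the start in Trem2, 56 before in Itgax and 44 before in Mmp12, and 8 bases after it in Gpnmb. The base at N was A in Trem2, C in Gpnmb and G in Itgax and Mmp12. The stricter AP-1 motif has C or G there, so the Trem2 match fits the loose form only. Among all 32851 windows of the same length, 7.81% held TGANTCA. The Spp1, Cd9 and Lgals3 windows and the first Mmp12 window did not hold these letters. CACGTG, taken here as the core of the MiT/TFE motif, was in none of the 7 genes' windows and in 7.15% of all windows. CATGTG, also searched, was in windows of 2 of the 7 genes (Cd9 and Mmp12) and in 14.2% of all windows. GGAAGT, likewise searched, was in windows of 3 of the 7 genes (Spp1, Itgax and Mmp12) and in 23.8% of all windows. A match describes these letters only.

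Trem2 encodes the lipid-sensing receptor of these cells. In eWAT its level in the 5 obese mice was 31.8, 99.98, 14.1, 175 and 7.66 CPM, against 2.97 to 5.77 CPM (median 4.46) in their 6 lean mice. At 2 weeks of regression it was 32.7 to 187 CPM (median 145) against 3.30 to 8.12. Every obese and every 2-week mouse lay above every lean mouse of its time, and the obese mice spanned a wider range than the lean ones. At 6 weeks Trem2 was 6.76 to 229 CPM (median 52.9) against 1.99 to 4.90. At 12 weeks it was 4.00 to 163 CPM (median 92.7) against 2.67 to 8.07. The 12-week groups overlapped, because regression replicates 3 and 6 (6.86 and 4.00 CPM) lay within the lean range. Trem2 rose in eWAT at all 4 times, with log2 fold changes of 3.94 ± 0.76 (SE), 4.60 ± 0.76, 4.31 ± 0.78 and 4.03 ± 0.75 in obesity and at 2, 6 and 12 weeks. The adjusted p-values of edgeR's quasi-likelihood test, corrected over all genes tested, were 0.00031, 1.67e-05, 0.00202 and 0.000812.

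Gpnmb encodes a glycoprotein of lysosomes and the cell surface. Its eWAT level was 157, 660, 97.0, 1034 and 23.8 CPM in the obese mice and 7.58 to 22.8 CPM in their lean mice. At 2 weeks it was 214 to 1432 CPM (median 894) against 14.4 to 24.5. No lean mouse of the same time reached the lowest obese or 2-week mouse. At 12 weeks 4 of 6 regression mice lay above the lean mice. Gpnmb rose at all 4 times, by log2 fold changes of 4.94 ± 0.84, 5.55 ± 0.85, 4.74 ± 0.83 and 4.78 ± 0.83 in eWAT (edgeR adjusted p of 7.57e-05, 7.92e-06, 0.0019 and 0.000636).

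Itgax encodes the integrin CD11c, shared by these macrophages and dendritic cells. Its eWAT level was 24.2, 73.8, 10.8, 118 and 7.66 CPM in the obese mice, all above the lean range of 0.909 to 2.73. It rose at all 4 times, with log2 fold changes between 4.56 ± 0.82 in obesity and 5.09 ± 0.83 at 12 weeks. Cd9, a tetraspanin of many cell types, differed less. Its eWAT level was 23.4, 45.2, 22.4, 60.2 and 21.2 CPM in the obese mice and 13.8 to 26.7 CPM in the lean mice, so the groups overlapped. At 2 weeks Cd9 was 26.7 to 70.3 CPM against 8.75 to 24.1, with no overlap. Cd9 rose at 2 weeks (log2 fold change 1.74 ± 0.29, edgeR adjusted p = 2.36e-05) and at 12 weeks (1.01 ± 0.29, 0.0145). In obesity and at 6 weeks its log2 differences of 0.78 ± 0.30 and 0.68 ± 0.29 did not pass. Without regression replicate 1 the 12-week value was 0.84 and no longer passed (edgeR adjusted p = 0.0633). Without lean replicate 5, or obese replicate 1, 3 or 5, Cd9 passed in obesity, with edgeR adjusted p between 0.0288 and 0.0384.

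Among the secreted proteins, Mmp12, the macrophage elastase, showed the largest differences of the 9 genes. Its lean eWAT level was 0 to 3.50 CPM over 24 mice, and 1 lean 12-week library held 0 counts of it. In the obese mice it was 70.0, 235, 12.9, 363 and 8.88 CPM. At 2 weeks it was 80.1 to 487 CPM (median 274), and at 12 weeks 1.30 to 558 CPM (median 245). Mmp12 rose by log2 fold changes of 6.39 ± 1.05, 7.81 ± 1.09, 8.55 ± 1.23 and 8.22 ± 1.17 (edgeR adjusted p of 4.82e-05, 2.35e-06, 0.000245 and 0.000196). Lean eWAT libraries held at most 42 counts of Mmp12. In the authors' deposited table its log2 fold changes were 6.41, 7.75, 8.51 and 8.23.

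Lgals3, which encodes the secreted lectin galectin-3, was also abundant in lean fat. Its eWAT level was 254, 671, 157, 1021 and 103 CPM in the obese mice and 63.7 to 98.0 CPM in their lean mice. The lowest obese mouse lay just above the highest lean mouse. Lgals3 rose by log2 fold changes of 2.38 ± 0.47, 2.98 ± 0.47, 2.12 ± 0.46 and 2.38 ± 0.46 (edgeR adjusted p of 0.000377, 1.09e-05, 0.00614 and 0.000885). Without 6-week regression replicate 6, the highest mouse of its group, the 6-week value was 1.56 and stood at the threshold (edgeR adjusted p = 0.0503).

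Spp1 encodes osteopontin, a secreted ligand of CD44 and integrins. Its lean eWAT level varied from 0.158 to 31.9 CPM. The obese mice had 15.1, 36.6, 7.60, 42.6 and 12.5 CPM, and 3 of them lay below the highest lean mouse. At 2 weeks 5 of 6 regression mice exceeded every lean mouse, and Spp1 rose there (log2 fold change 3.44 ± 1.05, edgeR adjusted p = 0.00927). At 6 weeks the log2 difference of 2.87 ± 1.08 did not pass (0.0894), although it did without lean replicate 3 (4.14, edgeR adjusted p = 0.0471). In obesity and at 12 weeks the log2 differences were 1.36 ± 0.99 and 0.89 ± 0.95, and neither passed. Lean mice at 12 weeks had a median of 12.4 CPM, above the lean medians of 0.369 and 0.212 CPM at 2 and 6 weeks, and these lean groups were not compared by a test.

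Atp6v0d2 encodes a subunit of the lysosomal proton pump that is typical of macrophages and osteoclasts. Its eWAT level was 33.4, 144, 17.7, 213 and 3.22 CPM in the obese mice against 1.02 to 2.52 CPM in the lean mice. At 2 weeks it was 32.2 to 234 CPM against 1.18 to 3.22. Atp6v0d2 rose by log2 fold changes of 5.68 ± 0.96, 6.26 ± 0.94, 5.65 ± 1.00 and 6.45 ± 1.04 (edgeR adjusted p of 6.75e-05, 6.27e-06, 0.0019 and 0.000482). Its ubiquitous paralog Atp6v0d1 differed by -0.03 ± 0.09, -0.01 ± 0.09, -0.07 ± 0.09 and -0.13 ± 0.09 on the log2 scale, and passed at no time.

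Fabp5, a fatty acid binding protein, had log2 differences of the opposite sign. Its eWAT level was 108, 96.9, 48.2, 91.4 and 53.3 CPM in the obese mice and 91.2 to 205 CPM in the lean mice. At 2 weeks it was 54.1 to 80.7 CPM against 86.7 to 149 CPM in the lean mice, without overlap. Fabp5 fell at 2 weeks by 0.79 ± 0.28 on the log2 scale (edgeR adjusted p = 0.023). Its log2 differences of -0.70 ± 0.29 in obesity, -0.20 ± 0.27 at 6 weeks and -0.53 ± 0.27 at 12 weeks did not pass. Without lean replicate 3 or 5 or regression replicate 1 or 6, the 2-week call was lost, with edgeR adjusted p between 0.0564 and 0.0597. Without obese replicate 1, Fabp5 passed in obesity (-0.84, edgeR adjusted p = 0.043). The adipocyte paralog Fabp4 fell in obesity (-0.65 ± 0.24, edgeR adjusted p = 0.0406) and did not pass at the other 3 times. In the authors' deposited table the obesity value of Fabp5 in eWAT was -0.72 with an adjusted p of 0.0499.

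**Figure D1:**
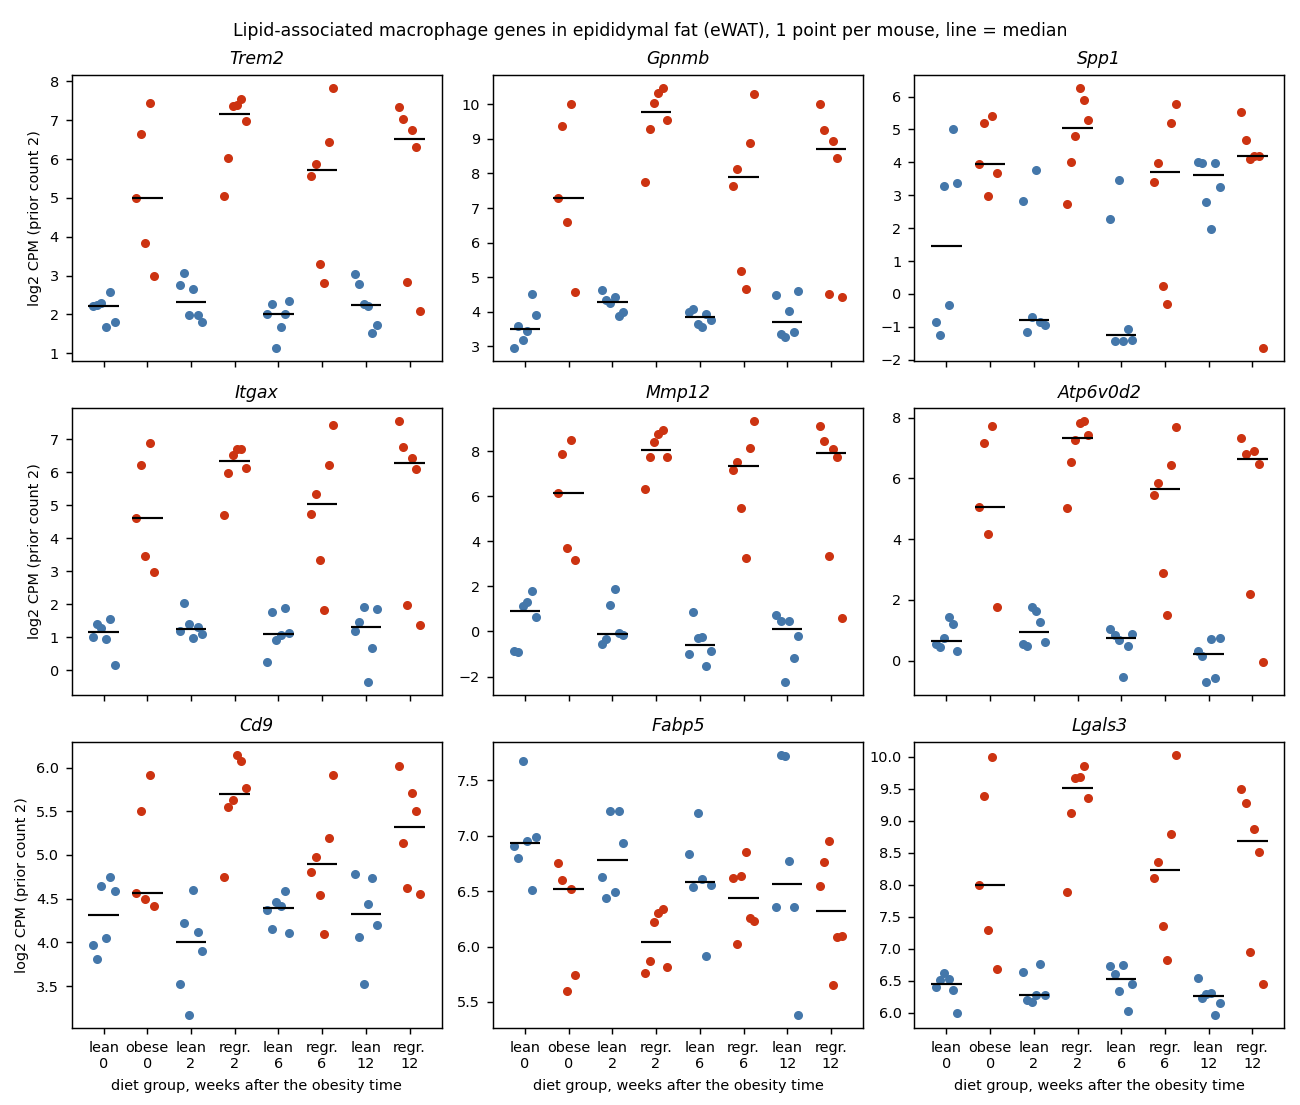
Level of each of the 9 genes in eWAT as log2 CPM with a prior count of 2 (y axis), by diet group and weeks after the obesity time (x axis). Each point is 1 mouse (blue lean, red obese or regression) and each line a group median. Trem2, Gpnmb, Itgax, Mmp12, Atp6v0d2 and Lgals3 stand above the lean mice of the same time in all obese and 2-week mice. At 12 weeks 1 mouse, replicate 6, lies among the lean mice of its time for every gene except Spp1, where it lies below them.

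Counted over the list, 6 of the 9 genes rose in eWAT in obesity, 8 at 2 weeks, 6 at 6 weeks and 7 at 12 weeks. Over all genes tested in eWAT, 14.1%, 18.6%, 5.56% and 10.8% were called higher in the same comparisons. Fabp5 at 2 weeks was the 1 call in the lower direction, against 17.1% of all genes. The median log2 difference of the 9 genes was 3.94, 4.60, 4.31 and 4.03, and the median of all genes lay between -0.03 and 0.02. The groups did not overlap at all for 6 of the 9 genes in obesity, 7 at 2 weeks, 5 at 6 weeks and 0 at 12 weeks, counting genes with every high-fat library above every lean library. Over all genes those shares were 5.85%, 6.98%, 2.05% and 0.88%. The members were chosen as markers of a cell type known to gather in obese fat, and the counts describe the list.

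The eWAT calls depended on the test. Trem2, Gpnmb, Itgax, Mmp12 and Atp6v0d2 passed at all 4 times whichever single library was left out. With limma voom in place of edgeR, chosen as an alternative after seeing the data, 2 of the 9 genes passed in obesity, 1 at 6 weeks and 3 at 12 weeks. Trem2 then had log2 differences of 3.10, 3.43 and 3.19 with limma adjusted p of 0.0784, 0.184 and 0.0721. At 2 weeks limma voom kept every eWAT call. With DESeq2 no eWAT call was lost, and Cd9 and Fabp5 also passed in obesity (DESeq2 adjusted p of 0.0462 and 0.045). The authors' deposited DESeq2 table called 7, 9, 6 and 7 of the 9 genes in eWAT at the 4 times, with the signs found here for all 9.

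The mice carried 2 ranges of numbers, one for replicates 1 to 3 and one for replicates 4 to 6. In each range alone Trem2 was higher at 6 weeks (log2 differences 3.48 and 4.80), but neither passed (edgeR adjusted p of 0.288 and 0.147), and 0 of the 9 genes did. At 12 weeks Trem2 differed by 3.94 and 4.23 in the 2 ranges, and passed in the first alone (0.0262 and 0.141). In obesity and at 2 weeks Trem2 and Mmp12 passed in each range.

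Mouse by mouse, 6 genes moved together in eWAT. This set was chosen after their values were seen. The genes Trem2, Gpnmb, Itgax, Mmp12, Atp6v0d2 and Lgals3 exceeded every lean mouse of the same time in all 5 obese mice and all 6 mice at 2 weeks. At 6 weeks replicates 3 and 4 were low, with Gpnmb at 35.7 and 25.04 CPM beside 200 to 1267 CPM in the other 4 mice. Replicate 4 exceeded the lean mice for 5 of the 9 genes, with Itgax at 3.32 CPM inside the lean range. At 12 weeks 4 mice exceeded the lean mice for 8 genes each, replicate 3 for 5 and replicate 6 for 0. Replicate 6 had 86.7 CPM of Lgals3, 1.30 of Mmp12 and 0.757 of Atp6v0d2, beside medians of 415.5, 245 and 101 CPM in its group. For Trem2, replicates 1, 2, 4 and 5 lay within the range of the 2-week mice and replicates 3 and 6 within the lean range.

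Across all 47 eWAT libraries the log2 CPM of these 6 genes correlated pairwise with Pearson r of 0.943 to 0.982. Cd9 correlated with the 6 at 0.835 to 0.871, Spp1 at 0.644 to 0.690 and Fabp5 at -0.476 to -0.359. The points share diet groups, and the coefficients are a description. The 10 other genes with the pattern nearest to the mean of the 9 genes (log2 CPM, each scaled to unit SD, over 47 libraries) in eWAT were Tlr13 (r of 0.983), Adam8, Pld3, Lipa, Lat2, Capg, Cdk18, Hpgds, Arl11 and Zranb3 (0.968). In iWAT they were Il1rn (0.952), F7, Lipa, Slc11a1, Tlr13, Lilr4b, Slc37a2, Cd300lb, Adam8 and Hk3 (0.922). Lipa, the lysosomal acid lipase, Tlr13, an endosomal RNA sensor, and Adam8, a metalloprotease, were in both lists.

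Levels between genes are compared per kilobase of exon. In lean eWAT the order of median CPM per kilobase ran from Lgals3 (43.7) and Fabp5 (30.9) through Cd9 (8.96), Spp1 (2.54), Gpnmb (2.30), Trem2 (0.895), Atp6v0d2 (0.494) and Itgax (0.426) to Mmp12 (0.0924). In the 2-week regression mice the order was Lgals3 (393.3), Gpnmb (137), Atp6v0d2 (59.8), Mmp12 (37.9), Trem2 (29.3), Cd9 (25.4), Spp1 (20.1), Fabp5 (18.6) and Itgax (16.9). Mmp12 was the lowest of the 9 genes in lean mice, and in the 2-week mice it stood above Trem2 and Cd9. Neighbours in both orders had overlapping ranges over mice.

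In iWAT 7 of the 9 genes rose in obesity and 2 at 2 weeks, Fabp5 fell at both times, and 0 passed at 6 and 12 weeks. Trem2 in the 5 obese mice was 56.4, 12.0, 14.1, 40.0 and 18.6 CPM, against 1.48 to 15.7 CPM (median 10.2) in their lean mice. Replicates 2 and 3 lay within the lean range. Mmp12 was 33.0, 19.9, 3.63, 62.4 and 13.8 CPM against 0.836 to 8.80, and Lgals3 was 413.01, 155, 173, 346 and 170 CPM against 75.9 to 177. Obese replicate 1 was highest for Trem2, Gpnmb, Spp1, Cd9 and Lgals3, and replicate 4 for Itgax, Mmp12 and Atp6v0d2. Over all genes tested in iWAT, 14.7% were called higher in obesity, beside 7 of the 9 genes. The log2 fold changes were 1.75 ± 0.66 for Trem2, 1.40 ± 0.49 for Gpnmb, 1.94 ± 0.55 for Itgax, 2.45 ± 0.75 for Mmp12, 1.79 ± 0.63 for Atp6v0d2, 0.68 ± 0.18 for Cd9 and 1.10 ± 0.29 for Lgals3. Spp1 did not pass, and its log2 difference of 0.57 ± 0.80 turned to -0.96 without obese replicate 1. Without lean replicate 5, which had 95.0 CPM of Spp1 beside at most 12.7 CPM in the other 5 lean mice, it was 2.29 and passed (edgeR adjusted p = 0.0249).

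Fabp5 fell in iWAT in obesity by 1.13 ± 0.32 on the log2 scale (edgeR adjusted p = 0.00601). Of all genes 15.5% were called lower. Its level was 92.9, 105, 31.8, 90.6 and 77.6 CPM in the obese mice, all below the lean range of 122 to 269. At 2 weeks Fabp5 was 33.4 to 63.1 CPM against 69.9 to 202 CPM, again without overlap, and it fell by 1.55 ± 0.30 (edgeR adjusted p = 0.000393). Fabp5 was the only one of the 9 genes whose iWAT groups did not overlap at these 2 times. Over all genes 10.2% in obesity and 2.53% at 2 weeks had every high-fat library below every lean library.

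At 2 weeks 2 of the 9 genes rose in iWAT, Cd9 (0.74 ± 0.18, edgeR adjusted p = 0.00314) and Lgals3 (0.87 ± 0.28, 0.0271), and Fabp5 fell. The background shares were 9.44% higher and 9.37% lower. Trem2 was 17.2 to 58.1 CPM (median 29.5) in these regression mice and 6.88 to 51.6 CPM (median 8.71) in the lean mice. Lean replicate 1 stood apart from the other lean mice, with 51.6 CPM of Trem2, 56.4 of Spp1 and 23.9 of Atp6v0d2. The next highest lean mice had 14.7, 7.68 and 7.36 CPM. Its summed pan-macrophage level of 2989 CPM and its cell division sum of 95.9 CPM were the highest of the 24 lean iWAT libraries, and their part in the result was not tested. In the eWAT of the same mouse Trem2 was 6.50 CPM, inside the lean range there. Without this library 8 of the 9 genes passed at 2 weeks in iWAT, with Trem2 at 1.85 (edgeR adjusted p = 0.0396), Gpnmb at 1.35 (0.0497), Spp1 at 2.37 (0.0376), Mmp12 at 2.20 (0.0364) and Atp6v0d2 at 2.19 (0.0145). Lgals3 lost its call without lean replicate 2, 3, 4 or 5 or regression replicate 5, with adjusted p between 0.0552 and 0.107.

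The iWAT calls in obesity rested on few mice. Without lean replicate 3 or 4 or obese replicate 1, 5 of the 9 genes passed, and without obese replicate 4 it was 4. Trem2 was the most sensitive, since its call was also lost without lean replicate 1, 2 or 6 (edgeR adjusted p between 0.0504 and 0.157 over the 7 libraries). Gpnmb and Atp6v0d2 lost their calls without any of the 4 libraries just named, and Mmp12 without obese replicate 4 (1.86, edgeR adjusted p = 0.0676). In the 2 ranges of mouse numbers taken alone 3 genes passed in obesity in each, and at 2 weeks 0 and 5.

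At 6 and 12 weeks 0 of the 9 genes passed in iWAT by edgeR, and 0 and 2 had an unadjusted p under 0.05. Of all genes 0.554% and 0.0216% were called higher. The 2 genes were Cd9 (log2 difference 0.51 ± 0.18) and Fabp5 (-0.79 ± 0.30) at 12 weeks. DESeq2 and limma voom also called 0 at both times. Trem2 was 2.88 to 11.3 CPM at 6 weeks and 1.01 to 9.30 CPM at 12 weeks, inside the lean ranges of 0.691 to 20.9 and 0.965 to 11.8.

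**Figure D2:**
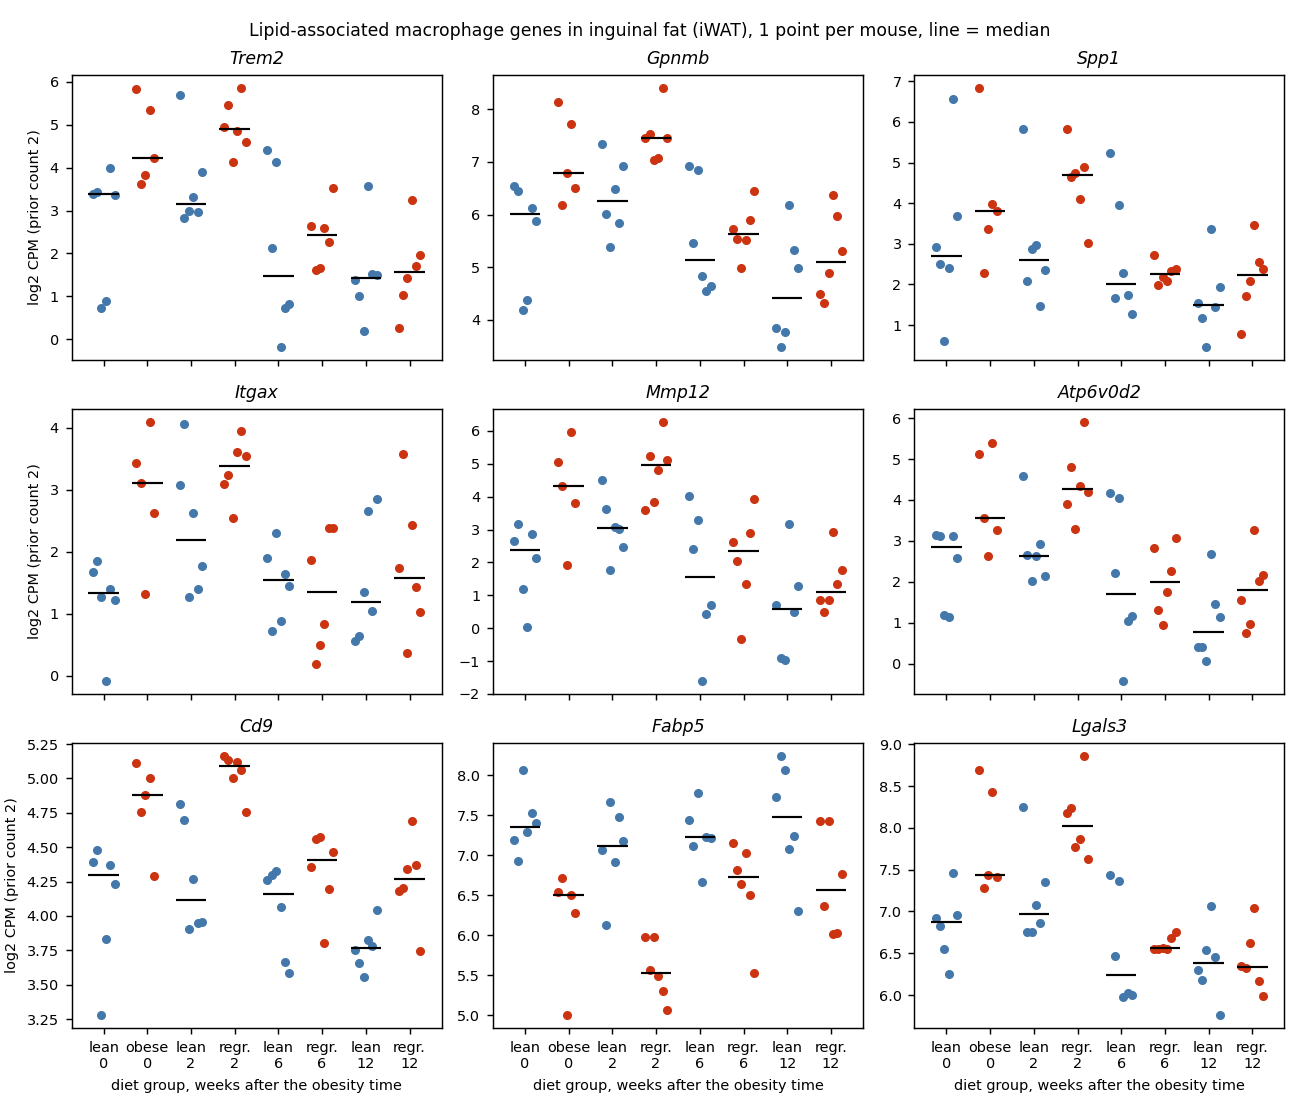
Level of each of the 9 genes in iWAT as log2 CPM with a prior count of 2 (y axis), by diet group and weeks after the obesity time (x axis), 1 point per mouse (blue lean, red obese or regression) with the group median as a line. Lean and high-fat mice overlap for all genes at all times, except for Fabp5 in obesity and at 2 weeks, and lean replicate 1 at 2 weeks stands at 51.6 CPM of Trem2.

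Itgax in iWAT was set beside signals of lymphoid tissue. The 2 libraries with the highest sums over 5 B cell markers, lean replicate 2 at 2 weeks (718 CPM) and regression replicate 2 at 12 weeks (849 CPM), had 16.6 and 11.7 CPM of Itgax. Their Trem2 was 6.88 and 1.88 CPM, low in their groups. Their sums over 6 dendritic cell markers were 185 and 213 CPM, beside a lean iWAT median of 41.0 CPM. Lean replicate 6 at 12 weeks, with a B cell sum of 301 CPM, had 7.01 CPM of Itgax and 2.63 of Trem2. The other 4 libraries with B cell sums over 100 CPM had 6.14, 6.00, 2.92 and 12.1 CPM of Itgax, and the 2.92 CPM, in 6-week lean replicate 5, was near its group's median of 2.74. The highest Itgax level in iWAT, 17.0 CPM, was in obese replicate 4, whose group had B cell sums of at most 18.6 CPM. The 16.6, 11.7 and 7.01 CPM were the highest Itgax levels of their groups, whose medians were 4.61, 2.82 and 2.12 CPM. The part of lymphoid tissue in the Itgax results was not tested on its own. In 1 fit the B cell, skeletal muscle, and skin and hair signals were terms together, so their parts cannot be told apart. In that fit Itgax passed at 2 weeks (log2 fold change 1.25, edgeR adjusted p = 0.0273), and Lgals3 did not (0.71, 0.0747). In iWAT the pairwise r of the 6 genes ranged from 0.651 (Itgax with Lgals3) to 0.957 (Atp6v0d2 with Mmp12), and the 5 pairs with Itgax were the 5 lowest of the 15.

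**Figure D3:**
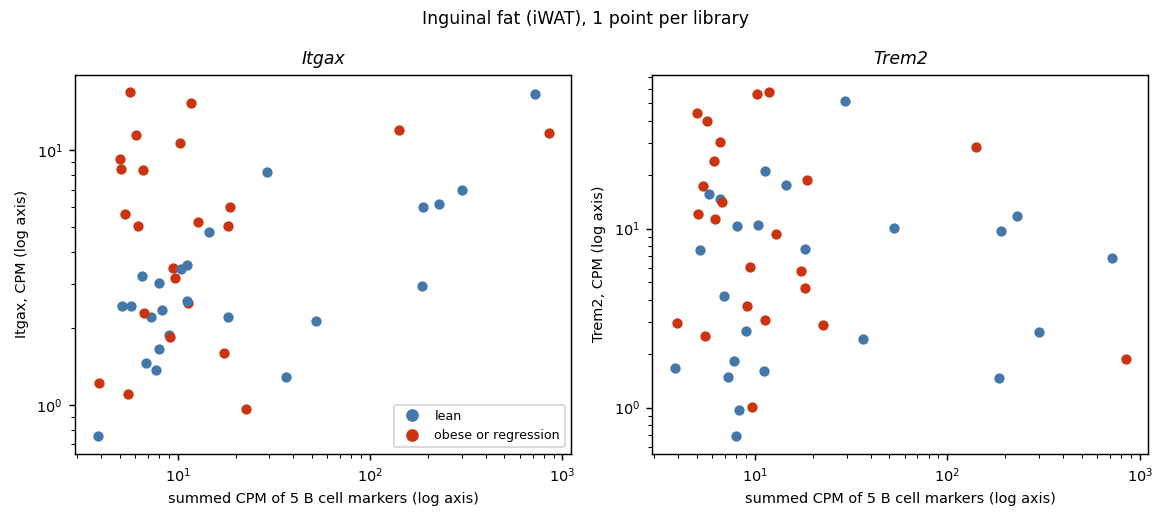
Itgax (left) and Trem2 (right) in the 47 iWAT libraries in CPM (y axis, log scale) against the summed CPM of 5 B cell markers (x axis, log scale), with lean mice in blue and obese or regression mice in red. The 2 libraries farthest to the right, at 718 and 849 CPM, have 16.6 and 11.7 CPM of Itgax but 6.88 and 1.88 CPM of Trem2.

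Whether the signed log2 difference from lean mice differed between eWAT and iWAT was tested in 1 fit over both depots with mouse as a block. At 2 weeks it was higher in eWAT for 8 of the 9 genes, a larger rise for 7 and a smaller fall for Fabp5, where 3.86% of all genes were called in that direction. The depot differences on the log2 scale were 3.12 ± 0.88 for Trem2, 4.20 ± 0.85 for Gpnmb, 4.01 ± 0.66 for Itgax, 5.93 ± 0.93 for Mmp12, 4.44 ± 0.90 for Atp6v0d2 and 1.97 ± 0.49 for Lgals3. Cd9 (0.95 ± 0.31) passed narrowly, and so did Fabp5 (0.73 ± 0.23), which fell in both depots and more in iWAT. Each of these 2 calls was lost without any 1 of 9 of the 12 mice, and both were lost with no filter on low counts. Without lean replicate 1 or regression replicate 3 the count at 2 weeks was 5.

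At 6 weeks 4 genes passed, against 0.285% of all genes: Gpnmb (3.64 ± 0.92), Itgax (4.05 ± 0.76), Mmp12 (8.08 ± 1.23) and Atp6v0d2 (5.47 ± 1.09). Gpnmb was at the threshold (edgeR adjusted p = 0.0486) and lost its call without any 1 of 10 of the 12 mice. Of the 9 genes 7 had an unadjusted p under 0.05 at 6 weeks. Among them Trem2 (3.68 ± 1.04, edgeR adjusted p = 0.0731) and Lgals3 (1.69 ± 0.49, 0.0804) did not pass. At 12 weeks Itgax (4.06 ± 0.76) and Mmp12 (6.93 ± 1.38) passed, against 0.0339% of all genes, and 6 of the 9 genes had an unadjusted p under 0.05. Trem2 (3.27 ± 1.09), Gpnmb (3.24 ± 0.97), Atp6v0d2 (4.92 ± 1.23) and Lgals3 (2.00 ± 0.50) did not pass. Their edgeR adjusted p-values were 0.11, 0.0874, 0.0646 and 0.0648. Spp1 was at -0.002 ± 1.19, Cd9 at 0.47 ± 0.32 and Fabp5 at 0.39 ± 0.23. Whether the depot difference changed over time was not tested. Without regression replicate 3 the 12-week count was 6 and without regression replicate 6 it was 5. It was 0 without lean replicate 5 or regression replicate 1 or 5, and 1 without lean replicate 1, 4 or 6 or regression replicate 2. In obesity 0 of the 9 genes differed between depots by edgeR, with 4 at an unadjusted p under 0.05 and 1.32% of all genes called. Mmp12 (3.29 ± 1.01, edgeR adjusted p = 0.0995) and Atp6v0d2 (3.17 ± 1.00, 0.112) lay closest, and both passed without obese replicate 5 (0.0388 and 0.0416). The fit without the mice that had a library standing apart left out 14 of the 47 mice, and called 2 genes at 2 weeks, 1 at 6 weeks and 0 at 12 weeks.

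**Figure D4:**
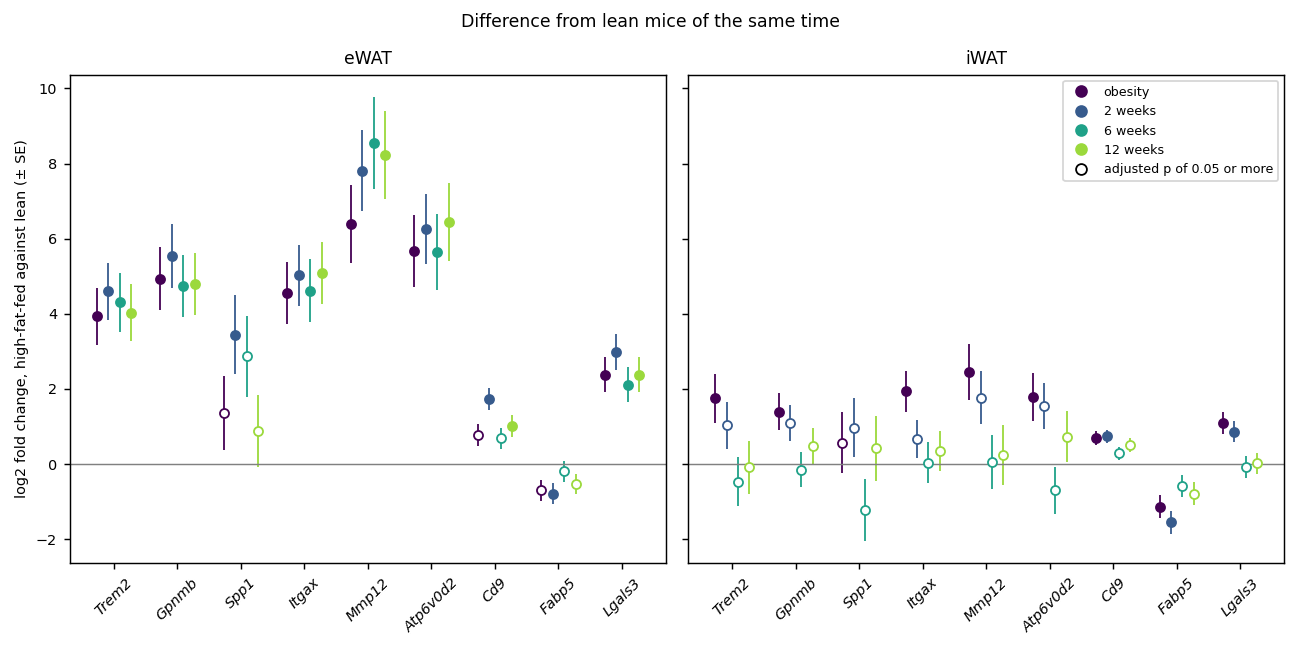
Log2 fold change of each gene against lean mice of the same time (y axis, bars ± SE from the edgeR fit) in eWAT (left) and iWAT (right), with 4 colours for obesity and 2, 6 and 12 weeks. Filled points passed at an adjusted p under 0.05. Trem2 is at 3.94 to 4.60 in eWAT at the 4 times, and in iWAT at 1.75 in obesity and -0.09 at 12 weeks.

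Lean mice differed between depots in the opposite direction. Averaged over the 4 lean groups, 6 of the 9 genes were lower in eWAT than in iWAT, where 31.2% of all genes were called lower. They were Gpnmb (log2 difference -1.75 ± 0.32), Spp1 (-1.18 ± 0.47), Mmp12 (-2.30 ± 0.50), Atp6v0d2 (-1.85 ± 0.43), Fabp5 (-0.58 ± 0.08) and Lgals3 (-0.43 ± 0.17). Trem2 (-0.59 ± 0.37), Itgax (-0.62 ± 0.28) and Cd9 (0.10 ± 0.11) did not pass. Lgals3 lost its call without 6-week lean replicate 1 or 3 or 2-week lean replicate 1. Spp1 lost its call without 6-week lean replicate 1, 2-week lean replicate 1 or 12-week lean replicate 4. Itgax passed without any 1 of 8 lean mice, with log2 differences of -0.70 to -0.66.

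Changes of the difference over time were tested within each depot. The contrasts from obesity share the obese and lean mice of that time, so they are given side by side only. In eWAT 0 of the 9 genes changed from obesity to 2, 6 or 12 weeks or from 2 to 12 weeks by edgeR, with 1, 0, 0 and 0 at an unadjusted p under 0.05. The shares of all genes called were 5.82%, 1.21%, 2.32% and 1.1%. The Trem2 estimates were 0.66 ± 1.02, 0.37 ± 1.06, 0.10 ± 1.03 and -0.56 ± 1.00 on the log2 scale. A change of the size of these standard errors was not detectable.

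In iWAT the same 4 contrasts called 0 of the 9 genes by edgeR, with 0, 6, 3 and 1 at an unadjusted p under 0.05 and 4%, 1.38%, 4.85% and 1.28% of all genes called. From obesity to 6 weeks the estimates for Trem2, Mmp12 and Atp6v0d2 were -2.21 ± 0.93, -2.39 ± 1.03 and -2.49 ± 0.89, and none passed (edgeR adjusted p of 0.211, 0.225 and 0.141). Lean mice at 12 weeks were also set against lean mice at the obesity time. In eWAT 0 of the 9 genes differed by edgeR, with 0 at an unadjusted p under 0.05 and 0.105% of all genes called. In iWAT 0 differed, with 3 at an unadjusted p under 0.05 and 0.496% of all genes called. The 3 were Spp1 (-2.53 ± 0.86), Atp6v0d2 (-1.36 ± 0.67) and Cd9 (-0.38 ± 0.18).

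Whether a mouse with high levels in one depot also had them in the other was asked in the 23 mice fed the high-fat diet, after subtracting group means. Itgax gave a Pearson r of 0.669 (permutation p = 0.00402, adjusted over the 9 relations 0.0362) and a Spearman rho of 0.702 (permutation p = 0.0021, adjusted 0.0189). Without the 2 mice farthest from the eWAT median its r was 0.681, with an adjusted permutation p of 0.0503. Fabp5 gave r of 0.594 (permutation p = 0.00953, adjusted 0.0429) and rho of 0.458 (0.0552, adjusted 0.176). Without its 2 farthest mice r was 0.392 and did not pass (adjusted permutation p = 0.238), and the drop in r was not tested. The relation was also computed within the 2 ranges of mouse numbers, chosen after seeing the data, and the difference between the ranges was not tested. In the 12 mice of replicates 1 to 3, r was 0.579 for Itgax and 0.655 for Fabp5 and neither passed (adjusted permutation p of 0.514 and 0.456). In the 11 mice of replicates 4 to 6, r was 0.894 for Itgax (adjusted permutation p = 0.0105) and 0.622 for Fabp5 (0.105). The rho of Itgax was 0.462 and 0.864 in the 2 ranges (adjusted permutation p of 0.436 and 0.0594). So the relation did not pass in replicates 1 to 3 for any of the 9 genes, and in replicates 4 to 6 it passed for Itgax, Cd9 and Gpnmb by r.

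For Mmp12 r was 0.434 (adjusted permutation p = 0.138) and for Trem2 it was 0.10 (permutation p = 0.7). The remaining 5 genes ranged from -0.188 for Spp1 to 0.363 for Atp6v0d2, with adjusted permutation p of 0.259 or more. Cd9 had opposite signs, with r of -0.618 in replicates 1 to 3 and 0.938 in replicates 4 to 6 (adjusted permutation p of 0.456 and 0.0105) and rho of -0.713 and 0.909 (0.286 and 0.021), beside r of 0.352 over all 23 mice. Trem2 (-0.314 and 0.547), Gpnmb (-0.279 and 0.788), Lgals3 (-0.368 and 0.626) and Spp1 (-0.265 and 0.399) were also negative in the first range and positive in the second. For example, eWAT Trem2 at 12 weeks was 163, 130, 6.86, 107, 78.8 and 4.00 CPM in replicates 1 to 6, and iWAT Trem2 in the same mice was 1.01, 1.88, 2.51, 9.30, 3.07 and 3.71 CPM. The mouse with the highest eWAT level had the lowest iWAT level in this group.

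**Figure D5:**
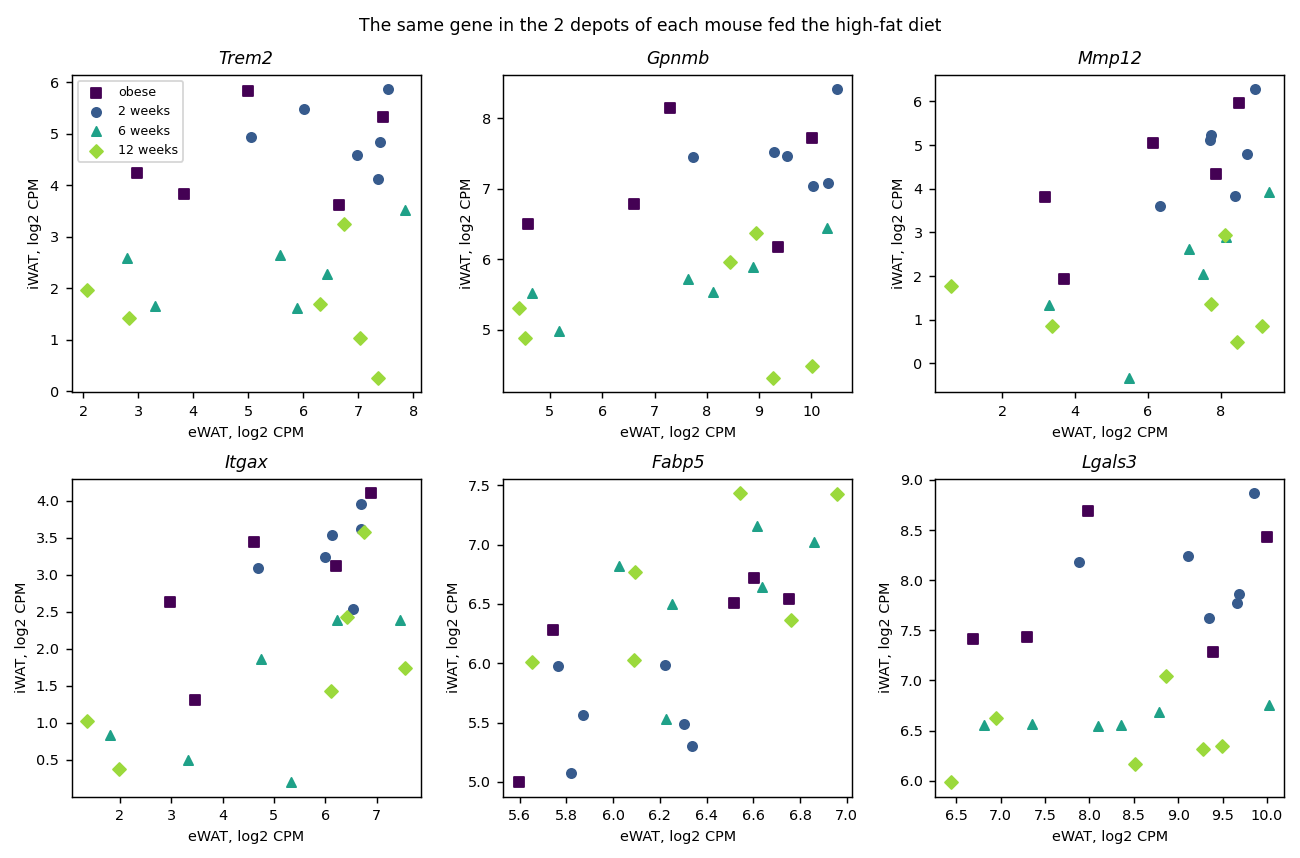
Level in iWAT (y axis) against level in eWAT (x axis) of the same mouse, both as log2 CPM with a prior count of 2, for 6 of the genes in the 23 mice fed the high-fat diet (marker and colour by group). Itgax rises across depots within groups (r of 0.669 after subtracting group means), while Trem2 shows little relation (0.10).

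Genes that act with these 9 were counted by list, against a median of all genes of 0.02 on the log2 scale in eWAT at 2 weeks. Genes that fell are named beside those with the largest changes, and were chosen after their values were seen. The counts stand beside 14.1%, 18.6%, 5.56% and 10.8% of all eWAT genes called higher in obesity and at 2, 6 and 12 weeks. Of 12 genes of TREM2 signalling, 10, 12, 5 and 10 rose in eWAT in obesity and at 2, 6 and 12 weeks and 0 fell, with a list median of 1.70 on the log2 scale at 2 weeks. Tyrobp, the adaptor that carries the TREM2 signal, rose by 1.89 ± 0.49, 2.84 ± 0.49, 2.01 ± 0.49 and 2.44 ± 0.49. Syk, the kinase recruited by that adaptor, rose by 2.64 ± 0.39 at 2 weeks. Of 16 receptors, ligands and other partners of the 9 proteins, 9, 9, 3 and 3 rose and 0, 1, 0 and 1 fell, with a median of 0.45 at 2 weeks. Itgb2, which encodes the partner chain of CD11c, rose by 2.63 ± 0.53, 3.17 ± 0.52, 2.64 ± 0.52 and 2.92 ± 0.52. Cd44, a receptor of osteopontin, rose by 2.33 ± 0.48 in obesity and 2.91 ± 0.47 at 2 weeks. Ppard, a nuclear receptor to which FABP5 delivers fatty acids, fell at 2 weeks (-0.42 ± 0.09) and 12 weeks (-0.28 ± 0.09, edgeR adjusted p = 0.0392).

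Of 20 genes of macrophage lipid handling, 9, 14, 9 and 8 rose in eWAT and 1, 1, 0 and 0 fell, with a median of 0.89 at 2 weeks. The genes that fell were Fabp4 in obesity and Lpl, lipoprotein lipase, at 2 weeks (-0.99 ± 0.19). Nceh1 and Soat1, which hydrolyse and form cholesterol esters, rose at 2 weeks by 3.00 ± 0.50 and 2.99 ± 0.46. Lipa rose by 2.42 ± 0.41 and the scavenger receptor gene Msr1 by 2.60 ± 0.54 at that time. Of 13 MiT/TFE factors and proton pump genes, 3, 7, 3 and 4 rose and 0 fell, with a median of 0.27 at 2 weeks. Mitf rose by 1.10 ± 0.24 at 2 weeks, and the pump subunit gene Atp6v1b2 by 1.16 ± 0.20. Of 10 osteoclast and cell fusion genes 8 were tested and 3 rose at each time, with a median of 0.66 at 2 weeks. They included Dcstamp, a fusion protein gene (3.76 ± 0.80 at 2 weeks), and Ctsk, which encodes cathepsin K (3.53 ± 0.56). Tm4sf19 rose by 6.57 ± 1.18.

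In iWAT 6 of the 12 TREM2 signalling genes rose in obesity and 3 at 2 weeks, Tyrobp by 1.09 ± 0.36 and 1.05 ± 0.34. Of the 20 lipid handling genes 6 rose and 3 fell in obesity, and 5 rose and 1 fell at 2 weeks. Of all iWAT genes 14.7% were called higher and 15.5% lower in obesity, and 9.44% and 9.37% at 2 weeks, so the falls in this list were near the background share. The genes that fell were Ctsd, Fabp4 and Npc2 in obesity and Ctsd at 2 weeks. Of the 16 partners 8 and 6 rose and 0 fell. Of the 13 MiT/TFE and pump genes 0 rose at either time, and Atp6v1h fell in obesity (-0.37 ± 0.14). Of the 8 osteoclast list genes 3 and 1 rose, and Acp5 fell in obesity (-0.43 ± 0.14). The 3 osteoclast list genes that rose in eWAT also rose in iWAT in obesity: Tm4sf19 by 2.98 ± 0.77, Dcstamp by 2.34 ± 0.70 and Ctsk by 0.87 ± 0.32.

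Markers of macrophages and of some other cells also rose in eWAT, and their part in the results was not tested. Of all eWAT genes 14.1%, 18.6%, 5.56% and 10.8% were called higher in obesity and at 2, 6 and 12 weeks. At 2 and 12 weeks 17.1% and 4.51% were called lower. Of all iWAT genes 14.7% were called higher and 15.5% lower in obesity, and 9.44% and 9.37% at 2 weeks. In lists this short, 1 call is not read as a result about a cell type. Of 8 pan-macrophage markers 7, 8, 7 and 7 rose in eWAT. Their summed level was 983 to 4184 CPM in the obese and 612 to 836 CPM in their lean mice. Of 7 resident macrophage markers 3 rose at each time, and of 5 monocyte markers 1, 1, 0 and 1 rose. Of 5 cell division genes 5, 5, 1 and 4 rose, and of 5 T cell markers 2, 2, 0 and 5. The T cell sum at 12 weeks was 4.33 to 64.5 CPM in the regression mice and 3.25 to 9.25 CPM in the lean mice. Of 6 adipocyte markers Lipe and Plin1 fell at 2 weeks. Of 6 dendritic cell markers 4, 2, 0 and 3 rose, and Cd209a fell at 2 weeks. The neutrophil sum was 0 to 9.78 CPM in eWAT. In 12-week regression replicate 6 the pan-macrophage sum was 1047 CPM and in replicate 3 it was 874 CPM, beside 512 to 1183 CPM in the lean mice and 2882 to 4781 CPM in the other 4 regression mice. In iWAT 7 and 1 of the 8 pan-macrophage markers rose in obesity and at 2 weeks, with sums of 1252 to 4575 CPM in the obese and 586 to 1458 CPM in their lean mice. Of 7 resident macrophage markers 6 and 2 rose there, and of 5 T cell markers 3 fell at 2 weeks. The iWAT T cell sum at 2 weeks was 3.95 to 20.1 CPM (median 10.4) in the regression mice and 5.68 to 303 CPM (median 9.30) in the lean mice. That lean group holds the library with a B cell sum of 718 CPM. Of 5 progenitor markers 4, 2, 1 and 1 rose in eWAT at the 4 times, and 5 in obesity and 0 at 2 weeks in iWAT. Of 5 B cell markers 2 rose in eWAT at 12 weeks, and of 3 neutrophil markers tested 2 rose in iWAT at 2 weeks. Of 4 endothelial markers 1 rose at 2 weeks and 1 fell at 12 weeks in eWAT, and 2 rose in iWAT in obesity. Of 6 adipocyte markers 1 rose and 2 fell in iWAT in obesity, and 2 rose at 2 weeks.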

How the data were processed

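Poly(A) RNA of eWAT and iWAT from 47 mice was sequenced in 94 libraries. Per the submitters' processing notes, the authors used STAR 2.4.1c, R 4.2.2 and DESeq2 1.38.3 with build mm10. No counting program, annotation or strand setting is given in the sources used here. Raw counts per gene, as the authors deposited them, were tested here. Tables of log2 fold changes with adjusted p-values, also deposited, were read for the 9 genes, compared with the calls and signs found here, and printed only where credited. Groups and mouse numbers came from the labels. The 9 genes, the gene lists and the tests were chosen with earlier results of these data known.

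Each depot was fitted with edgeR 4.0.16 in R 4.3.3 (TMM scaling, filterByExpr, quasi-likelihood F-test, 1 mean per group, all 47 libraries). This left 14323 genes in eWAT, 13899 in iWAT and 14749 in the fit of both depots, which had mouse as a block. Standard errors were derived from the F statistic. The threshold was 0.05 on p-values adjusted (Benjamini-Hochberg) over all genes tested; unless another tool is named, an adjusted p is edgeR's. CPM used the full library totals times the TMM factors of the fit, and per-kilobase levels used exon lengths of GENCODE M21. Depot relations used 100000 permutations within groups (scipy 1.17.1). Named were all 9 genes, up to 4 called genes with the largest change per list, the 10 nearest genes per depot and the paralogs Atp6v0d1 and Fabp4.

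Alternatives were DESeq2 1.42.0, its size factors, no filter, the replicate number as a block, limma 3.58.1 voom with and without runs of mouse numbers as a random block, the 2 ranges of mouse numbers as a term or alone, signals of other tissues as terms, the compared groups alone and each library left out. For the depot relation a prior count of 0.5 was also used. In depot fits with a mouse left out, the dispersion trend and genes of the full fit were kept. Libraries were counted as standing apart with a total under 2 M counts, an epididymal duct sum over 100 CPM, a B cell or skin sum over 100 CPM, or a muscle sum over 10000 CPM. Leaving them out, voom without a block, and the depot relation within each range of mouse numbers were added after seeing the data. Replicate numbers did not pair mice between groups. No 2 libraries of the same group and depot agreed within sampling noise, and libraries of different groups or depots were not compared in this way. The fits were also run on simulated counts, with an outcome not reported here. Where mice were caged together, p-values may measure spread within fewer units than mice.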

Additional observations from a re-analysis of the deposited data

Results flagged for a closer look

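In 9 of 144 groups (6.25%) 1 mouse lay far from the others by Dixon's criterion, which chance meets in about 1 group in 20. In eWAT these were Atp6v0d2 in 6-week lean replicate 4 (0.473 CPM, the others 1.17 to 1.83), Itgax in 2-week regression replicate 1 (25.6 CPM, the others 63.1 to 103) and Spp1 in 12-week regression replicate 6 (0.108 CPM, the others 16.9 to 46.2). In iWAT 3 of the 6 belonged to 2-week lean replicate 1, which had 51.6 CPM of Trem2 (the others 6.88 to 14.7), 56.4 CPM of Spp1 and 23.9 CPM of Atp6v0d2. The other 3 were Fabp5 in obese replicate 3 (31.8 CPM), Gpnmb in 2-week regression replicate 5 (340 CPM, the others 131 to 184) and Itgax in lean replicate 4 at the obesity time (0.753 CPM).

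The log2 difference from lean mice was higher in eWAT than in iWAT in 14 tested cases, of which Fabp5 at 2 weeks was a smaller fall in eWAT. At 2 weeks the depot differences on the log2 scale were 3.12 for Trem2, 4.20 for Gpnmb, 4.01 for Itgax, 5.93 for Mmp12, 4.44 for Atp6v0d2, 0.95 for Cd9, 0.73 for Fabp5 and 1.97 for Lgals3. At 6 weeks they were 3.64 for Gpnmb, 4.05 for Itgax, 8.08 for Mmp12 and 5.47 for Atp6v0d2. At 12 weeks they were 4.06 for Itgax and 6.93 for Mmp12.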

How the results depend on the processing

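Counts of the 9 genes called are given for 24 results. Of 246 alternatives other than leaving out single libraries, 223 kept the count within 1.5 times. Many of the 24 results, among them all changes over time, had a count of 0 as reported. For these a count that stayed at 0 was taken as kept, so the 223 says less about the results with calls. In eWAT the counts in obesity and at 6 and 12 weeks (6, 6 and 7) became 2, 1 and 3 with limma voom and 2, 0 and 3 with runs of mouse numbers as a random block as well. The correlation within runs was 0.067 in eWAT and 0.12 in iWAT, and most of the loss at these 3 times was already there without the block. The block also ended calls that voom without it kept: Spp1, Mmp12 and Fabp5 in eWAT at 2 weeks (limma adjusted p of 0.0523, 0.0539 and 0.0578), Lgals3 there at 6 weeks (0.0835), Atp6v0d2 in iWAT in obesity (0.0668) and Lgals3 in iWAT at 2 weeks (0.0654). Replicates 1 to 3 alone gave 0 in eWAT at 6 weeks, 3 in iWAT in obesity and 0 in iWAT at 2 weeks. Replicates 4 to 6 alone gave 0 in eWAT at 6 weeks, 0 in eWAT at 12 weeks, 3 in iWAT in obesity and 5 in iWAT at 2 weeks, with 3 mice or fewer per group. For depot differences DESeq2 called 7 genes at 6 weeks and 6 at 12 weeks, and the fit with no replicate block (no mouse term) called 5 at 12 weeks. Without the libraries standing apart the depot counts were 2, 1 and 0 at 2, 6 and 12 weeks, and the iWAT change from obesity to 6 weeks had 1. The cause was not tested for any of these. The relation between depots passed for 2 genes as reported, for 0 without the 2 farthest mice, for 0 without mice with a library standing apart and for 0 in replicates 1 to 3 alone. Without the mice with a library standing apart (17 mice left) r was 0.649 for Itgax and 0.731 for Fabp5, both with an adjusted permutation p of 0.0642. In replicates 1 to 3 alone r turned negative for Trem2 (-0.314), Gpnmb (-0.279), Cd9 (-0.618) and Lgals3 (-0.368), and in replicates 4 to 6 alone it turned positive for Spp1 (0.399). Leaving out single libraries gave 4 to 9 genes for iWAT in obesity, 2 to 8 for iWAT at 2 weeks, and 0 to 2, 5 to 8 and 0 to 6 for the depot differences in obesity and at 2 and 12 weeks. In eWAT it gave 6 to 8, 8 to 9, 5 to 7 and 6 to 7. Changes of sign were Spp1 in iWAT in obesity (-0.0514 with the replicate block, -1.33 in replicates 4 to 6 alone and -0.96 to 2.29 with single libraries left out), Itgax in iWAT at 2 weeks (-0.23 in replicates 1 to 3 alone) and Fabp5 in eWAT at 6 weeks (0.0912 in replicates 4 to 6 alone), none of them called under those settings. Of 3591 further gene values, called in no fit and not printed, 251 changed sign. The replicate block called 6, 9, 6 and 7 genes in eWAT and 6, 4, 0 and 0 in iWAT. Of 161 same-numbered pairs 62 in eWAT and 61 in iWAT correlated over 0.1, and 8 and 9 of 47 libraries were closest to their own number, so the numbers do not pair mice within a depot. Lean eWAT counts were low for Mmp12 (0 to 42) and limit the precision of its fold changes.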
